A study of Arabidopsis thaliana with 4 samples.

Results

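The genes described here are 48 Arabidopsis thaliana loci that were lower in the second library of each genotype than in the first, in mos2-2 seedlings and in wild-type seedlings alike. They were chosen by a rule on the measured values. A gene was taken when its mean over the 4 libraries was at least 5 FPKM, a fragment count scaled to transcript length and library size, and when log2(FPKM + 1) of replicate 2 minus that of replicate 1 was -1.5 or less in mos2-2 and also in Col-0. That threshold is a fold of 2.83 for a highly expressed gene. Of 33557 listed loci, 14160 averaged at least 5 FPKM, and the 48 genes were 0.339% of these. In 38 of the 48 the annotation gave a nuclear gene with a transcript of at least 300 nt. The other 10 were short loci or had no entry in the annotation. The difference of replicate 2 minus replicate 1 within a genotype is called the shift. Shifts chose the genes, so they are given as a description and without a test.

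The study set mos2-2, a line with the T-DNA insertion SALK_033856 in MOS2, against wild-type Col-0, and all plants were in the Col-0 background. The libraries were made from poly(A) RNA of whole seedlings at 14 days, kept in cycles of 16 h light and 8 h dark, and were read on an Illumina GAIIx. Each genotype had 2 libraries, named only replicate 1 and replicate 2, and mos2-2 is a single insertion allele. The labels do not say that the replicates came from separate cultures or give the hour of harvest, so a p-value here covers only how far these 4 libraries scatter, which may be technical.

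The plant circadian clock is a loop of transcription factors that are made at different times of day. CCA1 and LHY, made around dawn, bind a short promoter sequence called the evening element and hold down genes that peak towards dusk, among them the evening members of the loop. Growth of the primary cell wall is a separate process in which xyloglucan endotransglucosylase/hydrolases (XTH) cut and rejoin xyloglucan chains and expansin-type proteins loosen the wall.

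The libraries differed in ways that bear on the values. MOS2, the targeted gene, was at 1.16 and 2.16 FPKM in mos2-2 replicates 2 and 1, against 36.9 and 50.3 FPKM in Col-0 replicates 2 and 1, in the direction of the labels (log2 difference -4.08, SE 0.31, limma adjusted p = 0.073). The FPKM of all loci summed to between 1350292 and 1522916 per library, and 22411 to 23009 loci were above 0. The deposited values hold no read counts. From the spacing of low values, the worth of 1 read was estimated per 1 kb of transcript length beyond 200 nt. It was 0.124 and 0.127 FPKM in mos2-2 replicates 2 and 1, and 0.129 and 0.205 FPKM in Col-0 replicates 2 and 1. That corresponds to roughly 8050000, 7890000, 7730000 and 4880000 reads in the same order. Col-0 replicate 1 was thus the shallowest library, while the pair of mos2-2 libraries had nearly equal depth. No locus had the same value above 0 in both libraries of a genotype. Over all 14160 genes the median shift was -0.10 in mos2-2 and -0.18 in Col-0. Rescaling by median ratios brought both medians to -0.01, and rescaling by quantiles brought both to -0.05.

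Several RNA classes and marker lists also moved with the replicate number or with the genotype. Chloroplast transcripts summed to 189711 and 175182 FPKM in mos2-2 replicates 2 and 1, and to 220658 and 150410 FPKM in Col-0 replicates 2 and 1, higher in replicate 2 of both genotypes. The 6 seed storage markers summed to 0 and 1.26 FPKM in mos2-2 replicates 2 and 1 and to 0 and 0.790 FPKM in Col-0 replicates 2 and 1, with 2 of the 6 above 0 in each replicate 1. The 10 root markers summed to between 10.7 and 17.44 FPKM, and PLT1, RHD6 and EXPA7 were at 0 in every library. The 6 flower organ markers summed to 37.8 and 6.86 FPKM in mos2-2 replicates 2 and 1, and to 20.6 and 53.3 FPKM in Col-0 replicates 2 and 1, an order that did not follow the replicate number. The 5.8S ribosomal RNA locus AT3G41979 was at 76744 and 73081 FPKM in mos2-2 replicates 2 and 1, against 20656 and 23211 FPKM in Col-0 replicates 2 and 1. Their part in the results was not tested. In RNA from whole seedlings, fewer cells of a type and less RNA per cell cannot be told apart.

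Promoters of 2 of the genes are shown because they hold the full evening element, whose letters are AAAATATCT. Each runs from 250 bases before the annotated start to 50 bases after it, in the direction of transcription, and was read from the RefSeq TAIR10.1 genome. Capitals mark the evening element, which appears as AGATATTTT where the match is on the opposite strand. JMJD5 lies at chr3:7275395-7275694 on the plus strand and BOA at chr5:24003638-24003937 on the plus strand.
JMJD5: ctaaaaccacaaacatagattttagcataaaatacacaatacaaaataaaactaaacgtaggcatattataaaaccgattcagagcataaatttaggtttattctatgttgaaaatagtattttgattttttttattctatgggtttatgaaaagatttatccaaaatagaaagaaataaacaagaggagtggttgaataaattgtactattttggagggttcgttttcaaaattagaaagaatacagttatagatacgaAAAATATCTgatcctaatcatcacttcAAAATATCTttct
BOA: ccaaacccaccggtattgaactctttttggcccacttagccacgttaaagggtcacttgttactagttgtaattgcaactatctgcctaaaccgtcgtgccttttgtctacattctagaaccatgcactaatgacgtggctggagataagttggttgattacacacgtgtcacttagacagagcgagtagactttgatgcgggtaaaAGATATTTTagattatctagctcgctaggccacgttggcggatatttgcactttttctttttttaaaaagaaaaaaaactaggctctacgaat
The JMJD5 window held 2 copies, which begin at bases 11 and 38 of the annotated gene, so both lie past its start. The BOA window held 1 copy on the opposite strand, at position -43 from the start.

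The first group of the 38 longer genes holds 4 regulators tied to the time of day, and JMJD5 among them had the most negative mean shift of the 38. JMJD5 (AT3G20810, also called JMJ30), a jumonji-domain protein that works with the clock and peaks in the evening, was at 1.90 and 39.9 FPKM in mos2-2 replicates 2 and 1, and at 4.59 and 103 FPKM in Col-0 replicates 2 and 1. Both replicates 2 lay far under both replicates 1, with shifts of -3.82 in mos2-2 and -4.22 in Col-0. COR27 (AT5G42900), a cold-regulated gene linked to the clock, was at 11.2 and 180 FPKM in mos2-2 replicates 2 and 1, and at 35.0 and 104 FPKM in Col-0 replicates 2 and 1. It was 16.1-fold lower in replicate 2 of mos2-2 and 2.96-fold lower in replicate 2 of Col-0, so the same gene gave a wide and a narrow gap. COL9 (AT3G07650), a B-box protein of the CONSTANS family that delays flowering, was at 12.8 and 119 FPKM in mos2-2 replicates 2 and 1, and at 19.5 and 58.7 FPKM in Col-0 replicates 2 and 1. BOA (AT5G59570), a MYB-like factor closely related to the evening gene LUX, was at 1.98 and 11.8 FPKM in mos2-2 replicates 2 and 1, and at 3.08 and 20.7 FPKM in Col-0 replicates 2 and 1. All 4 had both replicates 2 under both replicates 1, an order that the rule favours.

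**Figure D1:**
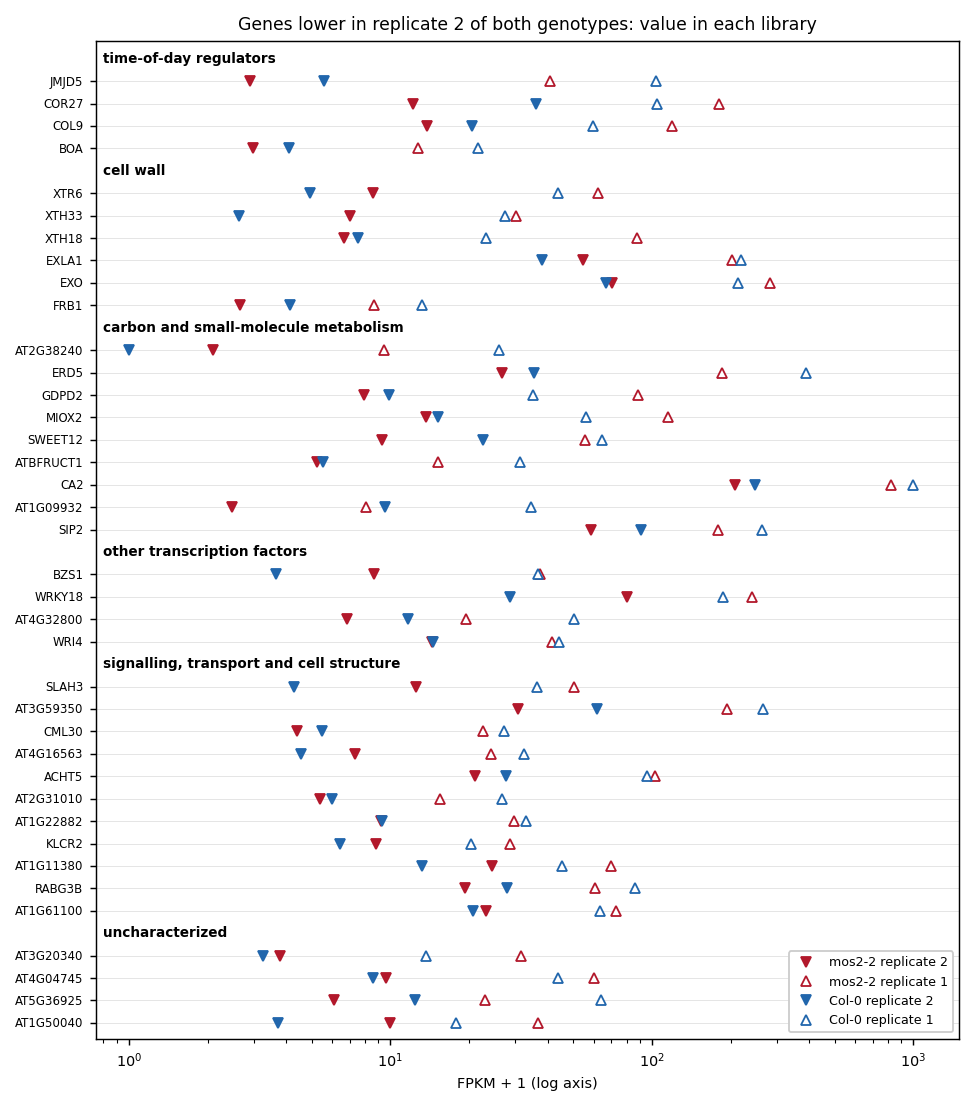
FPKM of the 38 longer genes in the 4 libraries, as FPKM + 1 on a log axis and grouped by role. Replicate 2 is the lower library in every gene and both genotypes, as the rule requires. CA2 is the most abundant gene, at 207 and 821 FPKM in mos2-2 replicates 2 and 1 and at 248 and 998 FPKM in Col-0 replicates 2 and 1.

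Apart from BOA, no listed clock gene met the rule, though some were lower in replicate 2 of both genotypes. Of 11 listed evening clock genes, all averaging at least 5 FPKM, BOA alone was among the 48 genes. The 11 had median shifts of -1.08 in mos2-2 and 0.00 in Col-0, and 5 were lower in replicate 2 of both genotypes, against 42.5% of all genes. With the libraries rescaled by median ratios that number was 4, against 4128 of 14148 genes. TOC1, a core evening repressor, was at 14.5 and 67.9 FPKM in mos2-2 replicates 2 and 1, and at 35.8 and 46.1 FPKM in Col-0 replicates 2 and 1. GI, an evening protein that controls flowering and clock protein turnover, was at 11.0 and 17.59 FPKM in mos2-2 replicates 2 and 1, and at 29.9 and 1.29 FPKM in Col-0 replicates 2 and 1. GI was therefore lower in replicate 2 in mos2-2 and higher in replicate 2 in Col-0. Of 12 listed clock output regulators, 8 averaged at least 5 FPKM, and 0 were among the 48 genes. Of these 8, 0 were lower in replicate 2 of both genotypes and 5 were higher, against 42.5% and 17.7% of all genes. JMJD5, COR27 and COL9 stood on none of the lists.

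Morning genes were mostly high where the 48 genes were low. Of 15 listed morning clock genes, 12 averaged at least 5 FPKM, and 6 of these were at 1.5 or more in both genotypes, against 135 of all 14160 genes, or 0.953%. Their median shifts were 1.99 in mos2-2 and 2.76 in Col-0. The share of all genes above replicate 1 in both genotypes was 17.7%, and 9 of the 12 morning genes were. CCA1 was at 24.2 and 0.760 FPKM in mos2-2 replicates 2 and 1, and at 4.41 and 0.485 FPKM in Col-0 replicates 2 and 1. RVE2, a relative of CCA1 on the same list, was the exception that was lower in both, at 11.0 and 23.8 FPKM in mos2-2 replicates 2 and 1, and at 1.65 and 29.9 FPKM in Col-0 replicates 2 and 1. RVE2 missed the rule in mos2-2, where its shift was -1.05.

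**Figure D2:**
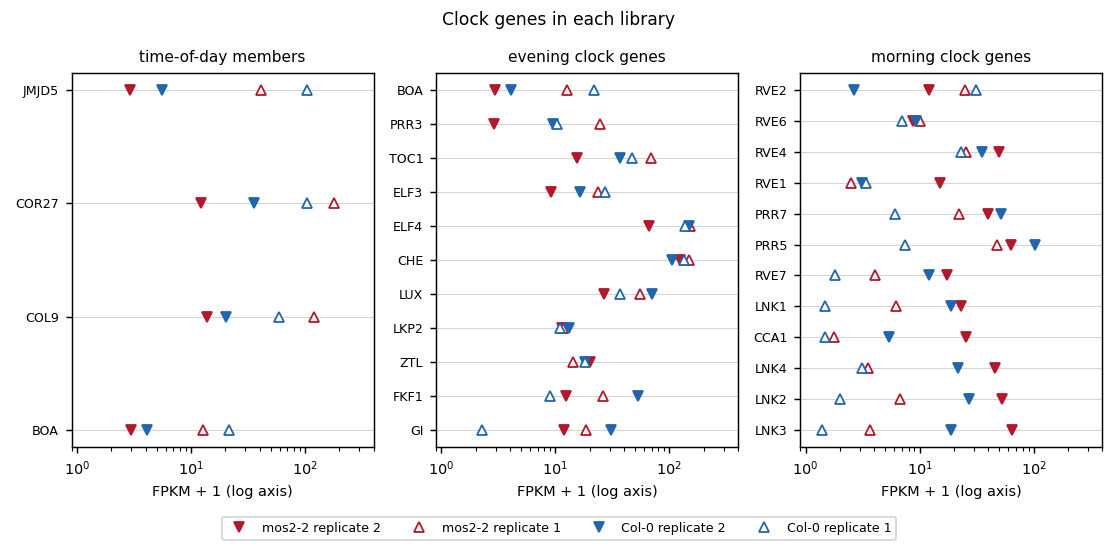
Values of listed clock genes averaging at least 5 FPKM beside those of JMJD5, COR27 and COL9, per library. Morning genes such as CCA1, at 24.2 and 0.760 FPKM in mos2-2 replicates 2 and 1, run opposite to JMJD5, at 1.90 and 39.9 FPKM in the same libraries.

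Cell wall genes formed the next group, 6 of the 38. XTR6 (AT4G25810, also called XTH23) was at 7.60 and 61.3 FPKM in mos2-2 replicates 2 and 1, and at 3.94 and 42.7 FPKM in Col-0 replicates 2 and 1. XTH33 (AT1G10550) was at 5.997 and 29.3 FPKM in mos2-2 replicates 2 and 1, and at 1.63 and 26.4 FPKM in Col-0 replicates 2 and 1. XTH18 (AT4G30280) was at 5.65 and 87.1 FPKM in mos2-2 replicates 2 and 1, and at 6.52 and 22.2 FPKM in Col-0 replicates 2 and 1. These 3 enzymes of xyloglucan remodelling had their replicates 1 above their replicates 2 in either genotype, and XTH18 had its one high value in mos2-2 replicate 1. EXLA1, an expansin-like protein, was at 53.6 and 201 FPKM in mos2-2 replicates 2 and 1, and at 37.1 and 217 FPKM in Col-0 replicates 2 and 1. EXO, a cell wall protein that promotes growth downstream of brassinosteroids, was at 69.2 and 282 FPKM in mos2-2 replicates 2 and 1, and at 65.9 and 213 FPKM in Col-0 replicates 2 and 1. FRB1, a protein of the O-fucosyltransferase family that affects cell adhesion, had the smallest mean shift of the group, with shifts of -1.71 in mos2-2 and -1.67 in Col-0.

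Other XTH genes were measured beside these 3. Of 33 XTH loci, 19 averaged at least 5 FPKM, 3 of these were among the 48 genes, and 12 were lower in replicate 2 of both genotypes while 2 were higher. Over all genes averaging at least 5 FPKM, 42.5% were lower in replicate 2 of both genotypes and 17.7% were higher. The XTH counts were again 12 and 2 after rescaling by median ratios or by quantiles, whereas the number of all genes lower in both went to 4128 of 14148 and 4700 of 14164. XTH25 was at 5.48 and 15.5 FPKM in mos2-2 replicates 2 and 1, and at 5.54 and 37.6 FPKM in Col-0 replicates 2 and 1, just short of the rule in mos2-2. XTH31 was one of the 2 that were higher, at 13.9 and 4.05 FPKM in mos2-2 replicates 2 and 1, and at 8.87 and 0.952 FPKM in Col-0 replicates 2 and 1. The 3 listed expansins averaging at least 5 FPKM were not among the 48, and 2 were higher in replicate 2 of both genotypes. Rescaling by median ratios or by quantiles made that 3. None of the 23 listed touch- and wound-induced genes, which include the XTH gene TCH4, was among the 48. Of these 23, 4 were lower in replicate 2 of both genotypes and 12 were higher, against 42.5% and 17.7% of all genes. The 12 became 14 and 13 after rescaling by median ratios and by quantiles, against 3810 of 14148 and 3380 of 14164 genes. Of 9 reference genes averaging at least 5 FPKM, 5 were lower in both and 1 was higher in both, with median shifts of -0.07 in mos2-2 and -0.25 in Col-0, and 1 was lower in both after rescaling by median ratios.

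Genes of carbon and small-molecule metabolism numbered 9 of the 38. CA2 (AT5G14740), a carbonic anhydrase that interconverts CO2 and bicarbonate, was the most abundant, at 207 and 821 FPKM in mos2-2 replicates 2 and 1, and at 248 and 998 FPKM in Col-0 replicates 2 and 1. ERD5 (AT3G30775), a proline dehydrogenase that starts proline breakdown, was at 25.6 and 184 FPKM in mos2-2 replicates 2 and 1, and at 34.5 and 386 FPKM in Col-0 replicates 2 and 1. Both had similar low levels in replicate 2 of either genotype, and ERD5 was 7.17-fold lower in replicate 2 of mos2-2 and 11.2-fold lower in replicate 2 of Col-0. MIOX2, a myo-inositol oxygenase, was at 12.7 and 114 FPKM in mos2-2 replicates 2 and 1, and at 14.3 and 54.8 FPKM in Col-0 replicates 2 and 1. GDPD2, a glycerophosphodiester phosphodiesterase, was at 6.96 and 87.7 FPKM in mos2-2 replicates 2 and 1, and at 8.87 and 34.2 FPKM in Col-0 replicates 2 and 1. In this pair the gap was the wider in mos2-2, because replicate 1 was the higher there. AT2G38240, an oxygenase of the 2-oxoglutarate-dependent family that oxidizes jasmonate, was at 1.09 and 8.44 FPKM in mos2-2 replicates 2 and 1, and was listed at 0 and at 25.1 FPKM in Col-0 replicates 2 and 1. It was the only one of the 38 listed at 0 in any library, so no fold is given in Col-0.

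Sugar handling was represented by 3 genes of that group. SWEET12, a sucrose exporter of the phloem, was at 8.32 and 54.7 FPKM in mos2-2 replicates 2 and 1, and at 21.6 and 63.2 FPKM in Col-0 replicates 2 and 1. SIP2, an enzyme acting on raffinose-family sugars, was at 57.4 and 179 FPKM in mos2-2 replicates 2 and 1, and at 90.2 and 262 FPKM in Col-0 replicates 2 and 1. ATBFRUCT1, a cell wall invertase that splits sucrose, was at 4.24 and 14.3 FPKM in mos2-2 replicates 2 and 1, and at 4.54 and 30.4 FPKM in Col-0 replicates 2 and 1. None of the 22 dark- and sugar-starvation-induced genes averaging at least 5 FPKM, of 24 listed, was among the 48. Of these 22, 14 were lower in replicate 2 of both genotypes and 2 were higher, against 42.5% and 17.7% of all genes. After either rescaling 11 were lower, against 4128 of 14148 genes by median ratios and 4700 of 14164 by quantiles. DIN10, a raffinose synthase of that list, stood just outside the rule, at 236 and 667 FPKM in mos2-2 replicates 2 and 1, and at 129 and 682 FPKM in Col-0 replicates 2 and 1. Of the 14 starch breakdown genes averaging at least 5 FPKM, of 15 listed, 10 had opposite signs. Of the 14, 3 were lower in both and 1 was higher in both, against the same 42.5% and 17.7% of all genes.

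Among the other transcription factors, WRKY18, a regulator of immunity that acts with its relatives WRKY40 and WRKY60, was the most abundant, at 79.3 and 241 FPKM in mos2-2 replicates 2 and 1, and at 27.6 and 185 FPKM in Col-0 replicates 2 and 1. BZS1, a B-box protein of brassinosteroid and light signalling, was at 7.68 and 36.2 FPKM in mos2-2 replicates 2 and 1, and at 2.66 and 35.8 FPKM in Col-0 replicates 2 and 1. Both were lowest in Col-0 replicate 2. WRI4, an AP2-type factor that promotes wax synthesis, differed little between the genotypes, at 13.5 and 40.5 FPKM in mos2-2 replicates 2 and 1, and at 13.6 and 43.1 FPKM in Col-0 replicates 2 and 1. AT4G32800, annotated as an integrase-type DNA-binding protein, was lower in mos2-2 than in Col-0 at both numbers, at 5.83 and 18.5 FPKM in mos2-2 replicates 2 and 1, and at 10.6 and 49.4 FPKM in Col-0 replicates 2 and 1.

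The 11 genes of signalling, transport and cell structure had shifts between -2.67 and -1.51 in mos2-2 and between -3.09 and -1.61 in Col-0. AT3G59350, a protein kinase, was the most abundant of them, at 29.7 and 194 FPKM in mos2-2 replicates 2 and 1, and at 60.7 and 266 FPKM in Col-0 replicates 2 and 1. SLAH3, an anion channel of the plasma membrane, was at 11.5 and 49.5 FPKM in mos2-2 replicates 2 and 1, and at 3.29 and 35.5 FPKM in Col-0 replicates 2 and 1. ACHT5, a chloroplast thioredoxin, was at 19.99 and 101 FPKM in mos2-2 replicates 2 and 1, and at 26.7 and 95.0 FPKM in Col-0 replicates 2 and 1. The calmodulin-like protein CML30, the Rab GTPase RABG3B, the kinesin light chain-related protein KLCR2, the kinase AT2G31010, the TIR-class protein AT1G61100, the aspartyl protease AT4G16563, the PLAC8-family protein AT1G11380 and the SUN-domain protein AT1G22882 made up the rest. RABG3B and AT1G61100 had nearly equal gaps in the genotypes, at 3.25-fold and 3.26-fold lower in replicate 2 of mos2-2 and 3.17-fold and 3.15-fold lower in replicate 2 of Col-0. The 4 uncharacterized genes AT3G20340, AT4G04745, AT5G36925 and AT1G50040 had shifts between -3.07 and -1.89 in mos2-2 and between -2.36 and -2.08 in Col-0.

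Over the 38 genes the median level was 8.28 and 52.1 FPKM in mos2-2 replicates 2 and 1, and 8.72 and 42.9 FPKM in Col-0 replicates 2 and 1. The rule favours both replicates 2 lying under both replicates 1, and the share of all genes with this order was not counted. It held in 37 of the 38. AT1G09932, of the phosphoglycerate mutase family, was the exception, at 1.48 and 7.06 FPKM in mos2-2 replicates 2 and 1, and at 8.57 and 33.6 FPKM in Col-0 replicates 2 and 1. The estimated reads behind a gene had medians of 96.3 and 523 in mos2-2 replicates 2 and 1, and of 97.2 and 286 in Col-0 replicates 2 and 1. Fewer than 20 reads stood behind 4 of the 38 genes in each replicate 2 and behind 0 in each replicate 1, so those low values are imprecise.

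**Figure D3:**
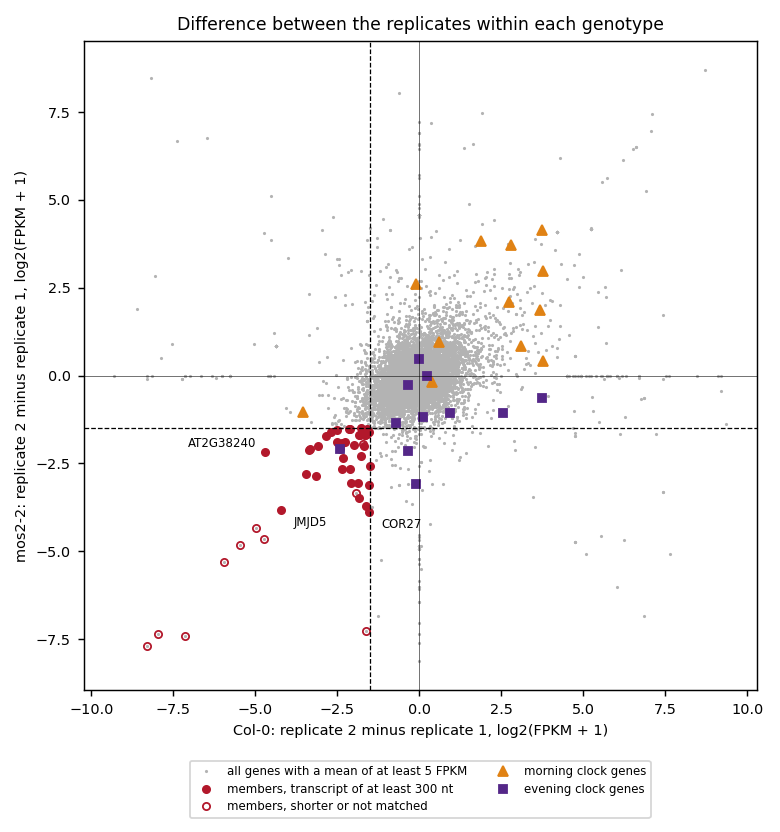
Shift (replicate 2 minus replicate 1, log2(FPKM + 1)) in mos2-2 on the vertical axis and in Col-0 on the horizontal axis, for all genes averaging at least 5 FPKM. The 48 genes fill the corner under -1.5 on both axes, since the dashed lines are the rule, and morning clock genes lie mostly in the opposite corner.

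The size of the shift was not the same in the genotypes for every gene. In 19 of the 38 the 2 shifts were within 0.5 of each other. The shift in mos2-2 was more negative by over 1 in COR27, XTH18, GDPD2, COL9, MIOX2 and SWEET12. In Col-0 it was more negative by over 1 in AT2G38240, XTH33, BZS1, AT4G16563, WRKY18 and SLAH3. With 1 library per genotype and replicate number, this difference could not be tested. Alone, 193 genes passed -1.5 in mos2-2 and 340 in Col-0, so the 48 genes were 24.9% of the mos2-2 list and 14.1% of the Col-0 list.

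Near the threshold the list has no gap. Just inside stood AT1G11380, with shifts of -1.51 in mos2-2 and -1.78 in Col-0, SWEET12 with -2.58 and -1.51, AT4G32800 with -1.51 and -2.12, and WRI4 with -1.52 and -1.60, in the same order. Just outside stood DIN10 with -1.496 in mos2-2 and -2.40 in Col-0, AT1G21520 with -1.487 and -1.497, AT5G08220 with -2.58 and -1.47, and NUDT7 with -1.45 and -1.53, in the same order.

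The 10 short or unmatched loci were of another kind, since 7 of them were listed at 0 in both replicates 2. MIR398b (AT5G14545), whose microRNA targets copper superoxide dismutase transcripts, was listed at 0 and 169 FPKM in mos2-2 replicates 2 and 1, and at 0 and 142 FPKM in Col-0 replicates 2 and 1. Its 116 nt annotated transcript lies wholly within a transcript of AT5G14550, which was at 10.2 and 27.4 FPKM in mos2-2 replicates 2 and 1, and at 15.8 and 15.1 FPKM in Col-0 replicates 2 and 1. Reads of these overlapping genes cannot be told apart here, and poly(A) libraries do not measure the mature microRNA. The mature sequence is given to identify the gene, read from the TAIR10.1 genome at chr5:4691107-4691127 on the plus strand, with the seed (bases 2 to 8) in capitals.
miR398b-3p: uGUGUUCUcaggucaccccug
The small nucleolar RNA gene AT4G02555 was listed at 0 and 163 FPKM in mos2-2 replicates 2 and 1, and at 0 and 252 FPKM in Col-0 replicates 2 and 1. ATCG00060, which the annotation used here does not hold, was listed at 0 and 205 FPKM in mos2-2 replicates 2 and 1, and at 0 and 316 FPKM in Col-0 replicates 2 and 1. These high values in replicate 1 may rest on few reads, because a read in a short transcript is worth many FPKM. Each was set against the smallest value of at least 1 FPKM among loci within 2 nt of its length. AT4G02555 was at 3.35 and 3.78 times that value in replicate 1 of mos2-2 and Col-0. MIR398b stood at 17.9 and 89.6 times in the same order, but the values it was set against were 9.41 and 1.59 FPKM. These lie under the smallest values for AT2G01023, of 120 nt, which were 27.2 and 43.0 FPKM in the same libraries. The MIR398b ratios therefore do not show that more reads stood behind it. ATCG00060 had no length to compare. AT2G28426 and AT3G48131, both 132 nt long, stood at 38.3 and 19.1 FPKM in mos2-2 replicate 1 and at 60.6 and 30.3 FPKM in Col-0 replicate 1, a ratio of 2 in each library. AT2G01023, 120 nt long, stood at 27.2 FPKM in mos2-2 replicate 1 and at 43.0 FPKM in Col-0 replicate 1, in each case the smallest value of at least 1 FPKM among loci within 2 nt of its length. The 168 nt locus AT2G11891 was listed at 0 in both replicates 2, and at 24.0 FPKM in mos2-2 replicate 1 and 25.4 FPKM in Col-0 replicate 1. The remaining 3 were the small nucleolar RNA gene AT3G58196, AT5G27889 and AT3G04184. AT3G58196 was listed at 0 and 154 FPKM in mos2-2 replicates 2 and 1, and at 155 and 477 FPKM in Col-0 replicates 2 and 1. AT3G04184 was the one short locus above 0 in every library, at 8.78 and 36.4 FPKM in mos2-2 replicates 2 and 1, and at 9.15 and 32.6 FPKM in Col-0 replicates 2 and 1. An exact 0 can be a failed estimate, so no fold is given for these loci.

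The difference between genotypes was not used by the rule, but the rule did fix a wide spread between the libraries of a genotype. In limma on log2(FPKM + 1), 12 of 19236 genes averaging at least 1 FPKM had an adjusted p under 0.05, which is 0.0624%. Of the 48 genes, 0 passed in limma, and 1 had an unadjusted p under 0.05, against 1351 of all genes tested. Nothing is read from this 0, because the wide spread enters the test. The gene with the unadjusted p under 0.05 was the 162 nt locus AT5G27889, listed at 0 and 9.11 FPKM in mos2-2 replicates 2 and 1, and at 18.3 and 72.3 FPKM in Col-0 replicates 2 and 1. Its log2 difference was -3.57 (SE 1.26, limma adjusted p = 0.701).

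At both replicate numbers, 12 of the 48 genes were higher in mos2-2 than in Col-0, or 25% against 22.8% of all genes averaging at least 5 FPKM. Another 19, or 39.6%, were lower in mos2-2 at both numbers, against 35.8% of all genes. Both shares lay near those of all genes, but 7 of the 48 were listed at 0 in both replicates 2 and could enter neither count. Of the 38 longer genes, 12 were higher in mos2-2 at both numbers and 17 were lower. These are larger shares than over all genes, but the shares of all genes include short and unmatched loci, which the 38 leave out. The difference was not tested. The median log2 difference of mos2-2 minus Col-0 was -0.18 over the 48 genes, -0.07 over the 38 longer genes and -0.08 over all genes averaging at least 5 FPKM. Both mos2-2 libraries stood on the same side of both Col-0 libraries in 3 of the 48 genes, against 37% of all genes, and the rule itself lowers that number by widening the spread. Among the 38 longer genes AT1G09932 was the single such gene, and averaged 4.27 ± 3.94 FPKM in mos2-2 and 21.1 ± 17.7 FPKM in Col-0 (SD, n = 2 each). Its log2 difference was -2.03 (SE 0.84, limma adjusted p = 0.724).

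Individual genes stood on either side of Col-0. The SD beside each mean restates the gap between replicates that chose the gene, so nothing is read from its size, and the differences at each replicate number are given as a description. AT1G50040 averaged 22.4 ± 19.0 FPKM in mos2-2 and 9.81 ± 10.01 FPKM in Col-0 (SD, n = 2 each), with log2 differences of 1.41 at replicate 2 and 1.04 at replicate 1. AT5G36925 averaged 13.5 ± 11.9 FPKM in mos2-2 and 37.2 ± 36.5 FPKM in Col-0 (SD, n = 2 each), with log2 differences of -1.03 at replicate 2 and -1.48 at replicate 1. JMJD5 averaged 20.9 ± 26.9 FPKM in mos2-2 and 53.8 ± 69.6 FPKM in Col-0 (SD, n = 2 each), with log2 differences of -0.95 at replicate 2 and -1.35 at replicate 1. AT1G50040 was thus higher in mos2-2 at both numbers, and AT5G36925 and JMJD5 were lower. COR27 was 1.56 lower on the log2 scale in mos2-2 than in Col-0 at replicate 2 and 0.79 higher at replicate 1.

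**Figure D4:**
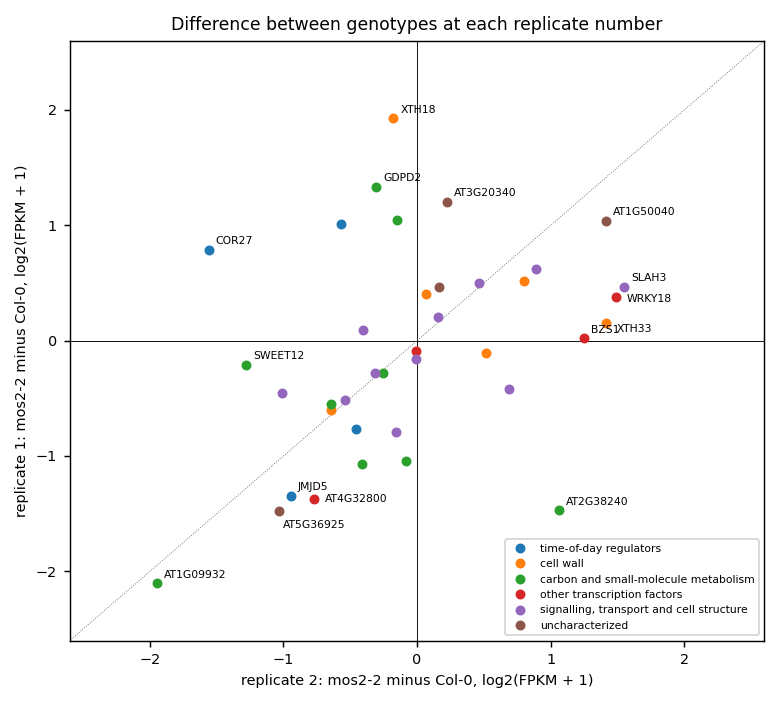
Log2(FPKM + 1) of mos2-2 minus Col-0 at replicate 2 (horizontal axis) and at replicate 1 (vertical axis) for the 38 longer genes, coloured by role. Points lie on all sides of the axes, with 12 genes higher in mos2-2 at both numbers and 17 lower at both. Over all genes averaging at least 5 FPKM the shares were 22.8% and 35.8%.

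The promoters were searched for 18 short motifs on both strands, in the same 300-base window as shown for JMJD5 and BOA, over the 38 longer genes and over 13420 genes of at least 5 FPKM and 300 nt. The evening element AAAATATCT was in 3 of the 38 promoters, or 7.89%, against 3.38% of all. Its short form AATATCT, which every full element contains, was in 11, or 28.9%, against 12.5% of all. Besides JMJD5 and BOA, promoters with the short form included those of COL9, BZS1, EXLA1, AT1G11380, AT3G20340, AT4G04745, AT4G16563 and AT4G32800. Shares of like size stood in the opposite set, where 8.25% of the 97 scanned promoters of genes higher in replicate 2 of both genotypes held the full element and 22.7% held the short form. In a window from 500 bases before the start, the full element was in 4 of the 38, or 10.5% against 5.41% of all.

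Other motifs stood on either side of the share in all promoters. The heat shock element GAANNTTC was in 21.1% against 11.3%, the HUD box CACATG in 21.1% against 12.9%, the CAMTA-type box CGCGTT in 10.5% against 3.90%, the starvation element TATCCA in 23.7% against 17.5% and the TATA box TATAAA in 60.5% against 50.7%. The G-box CACGTG was in 10.5% against 9.23%, the ABRE core ACGTGTC in 7.89% against 5.12%, the DRE core ACCGAC in 7.89% against 6.63% and the I-box GATAAG in 18.4% against 16%. The site II element TGGGCC was in 5.26% against 21% of all promoters, the CCA1-binding site AAAAATCT in 2.63% against 8.28%, the morning element CCACAC in 7.89% against 8.03%, the W-box TTGACC in 13.2% against 14.2% and the auxin response element TGTCTC in 10.5% against 12.8%. The telo box AAACCCTA and the GCC box GCCGCC were in 0 of the 38, against 5.52% and 2.70% of all. Several of these contrasts changed in the window from 500 bases before the start, where the heat shock element was in 21.1% against 20.1%, TATCCA in 26.3% against 28.7%, the CCA1-binding site in 13.2% against 14%, the site II element in 15.8% against 24.9%, the G-box in 10.5% against 12%, the morning element in 15.8% against 13.6% and the W-box in 23.7% against 22.2%. The short evening element was in 31.6% against 20.3% there. The G-box and the ABRE core share the letters ACGTG and can overlap. With 38 promoters, 1 promoter more or less moves a share by 2.63 percentage points, and a match describes letters in a window, not binding.

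**Figure D5:**
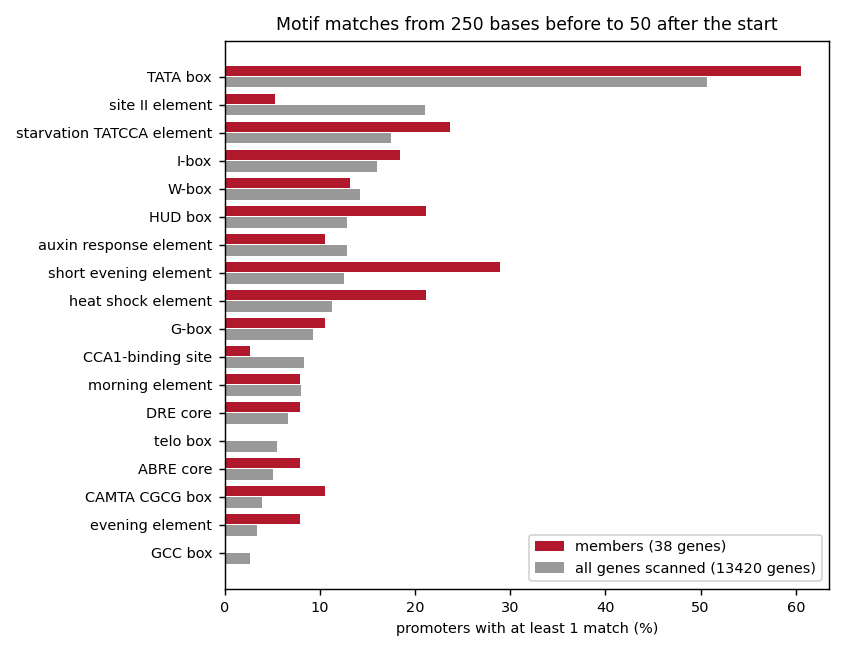
Percent of promoters that hold each motif, for the 38 longer genes and for all 13420 genes scanned. The short evening element is in 28.9% and 12.5% of the promoters, and the site II element in 5.26% and 21%.

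In structure the 38 genes were close to the others. Their median transcript length was 1519 nt against 1591 nt over all genes scanned, 6 of the 38 (15.8%) had a single exon against 11% of all, and the median promoter GC content was 30.7% against 32%. They lay on all 5 chromosomes, with 8, 4, 9, 8 and 9 genes on chromosomes 1 to 5. Sequence shared with other genes touches a few values. XTH18 matched XTH17 at 90.7% over 1225 nt, and XTH17 was at 3.21 and 10.1 FPKM in mos2-2 replicates 2 and 1, and at 3.79 and 2.41 FPKM in Col-0 replicates 2 and 1. The antisense gene AT2G15690 covers 647 nt of CML30, and UGT76E1 covers 1896 nt of the BOA locus on the opposite strand. Both lengths are of genomic span, introns included. The strand setting of the counting is not given in the sources used here, so the values of CML30 and BOA are uncertain to that extent. AT2G15690 was at 9.81 and 7.87 FPKM in mos2-2 replicates 2 and 1, and at 10.01 and 9.84 FPKM in Col-0 replicates 2 and 1, with no gap like that of CML30. UGT76E1 was at 1.03 and 0.193 FPKM in mos2-2 replicates 2 and 1, and at 0.680 and 2.01 FPKM in Col-0 replicates 2 and 1.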

How the data were processed

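RNA-seq of 2 mos2-2 and 2 Col-0 libraries was used. The authors deposited FPKM per locus, made with TopHat and Cuffdiff on TAIR10, per the submitters' processing notes. For the version of each tool, the annotation release and the strand setting, the entry is: not given in the sources used here. Names, lengths and sequences came from RefSeq TAIR10.1, in which 32810 of the 33557 loci were matched by locus tag. The files hold no coordinates.

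Values were used as deposited, on log2(FPKM + 1), which understates changes of low genes. Genotypes were compared with limma 3.58.1 in R 4.3.3 (trend, genotype as the only term, two-sided, Benjamini-Hochberg over the 19236 genes averaging 1 FPKM or more, 2 residual degrees of freedom). The code was also run on simulated data with a preset scatter not taken from these libraries. That run therefore does not show how the fit performs on them. Reads were estimated from the spacing of low FPKM values with a length offset of 200 nt. Near copies were found with BLAST 2.17.0. Alternatives changed the pseudocount, filter, scaling, threshold and libraries.

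The genes and lists were chosen with earlier results of these data known. The naming rule took genes on the lists, the 15 largest mean shifts, the 10 highest means, the 8 largest and 8 smallest genotype differences of 1 sign, the 4 genes on each side of the threshold, and families with 3 or more members. Other genes were named, to account for every one, after their values were seen. The promoter of 1 further gene is not reported here.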

Additional observations from a re-analysis of the deposited data

How the results depend on the processing

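The rule gave 48 genes. After rescaling by median ratios it gave 32, all of them among the 48, and after quantile normalization 36, of which 35 were among the 48. The number taken was 24 with a pseudocount of 5, 177 at a threshold of -1 and 19 at a threshold of -2. The number higher in mos2-2 at both replicate numbers, 12 of 48, was 32 of 177 at -1 and 6 of 19 at -2. The number lower in mos2-2 at both was 19 of 48. It was 6 of 24 with a pseudocount of 5 and 12 of 32 for genes averaging 20 FPKM or more. With rescaling it was 10 of 32 by median ratios and 10 of 36 by quantiles. At the other thresholds it was 96 of 177 at -1 and 5 of 19 at -2. The shares of all genes under these settings were not counted, so nothing is read from these changes. The median difference of mos2-2 minus Col-0, -0.18, was 0.031 after quantile normalization, -0.30 at -1, -0.30 at -2 and -0.066 with genes of at least 300 nt. The 12 genes past the threshold in limma were 4 with a pseudocount of 5, 4 with no filter, 6 with the replicate block and 0 to 0 without 1 library, where the remaining library of that genotype is taken to scatter as the other genotype does. In each of these fits 0 of the 48 genes passed. With the replicate block 11 of the 48 had an unadjusted p under 0.05, against 1930 of 19236 genes, and the smallest adjusted p was 0.271. The rule chose genes with a gap in both genotypes, which the block removes, so that fit is not independent of the rule either. Same-numbered deviations had r = 0.211 over the genes tested, but the labels state no shared origin and there are only 2 pairs, so a pairing was not established. The rule cannot be applied without a library. The cause of these changes was not tested. Depth limits the low values of replicate 2 and, in Col-0 replicate 1, all low genes.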
